A study of Mus musculus with 8 samples.

Results

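Alveolar macrophages, which live in the airspaces of the lung, were compared between lungs that had carried tumor cells for 15 days (d15) and naive lungs, across all genes measured. The comparison holds 5 of the 8 libraries of the series, 3 naive and 2 d15, taken by their sample labels and not by any measured value. All mice were of the C57BL/6 strain, and no other allele is given for any group. Naive mice carried no tumor, whereas d15 mice had received cultured KP tumor cells through the tail vein, and the labels do not say whether these were KP or KP-GFP cells. The abbreviation KP is not spelled out in the labels, and the sources used here give neither the age of the mice nor the hour at which lungs were taken. The other 3 libraries came from tumor-bearing lungs labelled day 35 (d35), although the growth protocol gives a harvest between day 15 and day 30, and they serve here as a further level beside the d15 values. RNA of 20000 sorted cells was used for a library, with 1 ng made into cDNA. The sources used here do not name the markers of the sort gate.

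Alveolar macrophages take up surfactant lipid and inhaled particles, and they depend on the growth factor GM-CSF and on the nuclear receptor PPAR gamma. Like most cells they run a circadian clock, in which BMAL1 (encoded by Arntl) and CLOCK switch on the Per, Cry and Nr1d genes, whose products then hold BMAL1 and CLOCK in check. Glucocorticoid hormones, whose blood level swings over the day and rises with stress, reach the same cells and induce genes such as Fkbp5.

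The 5 libraries held between 27465745 and 38561195 recovered reads, and expression is given below as the authors' scaled CPM, in which read counts are scaled to library size. On the first principal component, with 51.8% of the variance among the 5 libraries, the d15 libraries lay at 18.1 and 20.8 and the naive libraries between -17.3 and -10.6. The second component, with 22.4%, set naive replicate 1 apart at 19.7, the other libraries lying between -9.10 and 1.01. Defining markers of the labelled cell type were present throughout: the lectin gene Siglecf ranged from 558 to 750.1, the scavenger receptor gene Marco from 323 to 523 and the chitinase-like gene Chil3 from 17922 to 30809.9 scaled CPM over the 5 libraries. In this bulk RNA, fewer cells of a type and less RNA per cell cannot be told apart. Whether the libraries within a group stem from different mice is not stated in the labels. The p-values therefore measure only how far these samples spread, and that spread may be technical.

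Over all genes tested, 267 of 11273 rose (2.37%) and 226 fell (2.0%) at d15, 4.37% in all, by the limma test at an adjusted p of 0.05. Most changes were small, since 167 rises and 109 falls were under 1.5-fold and only 42 rises and 27 falls reached 2-fold. The median log2 fold change was 0.52 among rises, -0.59 among falls and 0.012 over all genes tested. In each of the 493 genes the 2 d15 values lay outside the range of the 3 naive values, but this was also so in 25.9% (higher) and 22.3% (lower) of all genes tested. The count depended on single libraries: it was 12 when d15 replicate B was left out, 90 when d15 replicate A was, and 232, 64 and 110 when naive replicate 1, 2 or 3 was. It was 1079 without d35 replicate 3. A d15 library left alone in its group was assumed to vary like the other groups. The calls of 11 genes held under every one of the 20 alternative settings. These were the rises of Nr1d2, Tef, Nr1d1, Gca, Fkbp5, Sla, St7 and Klf9 and the falls of Slc7a8, Mfsd6 and Fosl2, listed after their values were seen. A gene with a mean log2 value under 3 was not tested under the stricter filter and so could not be among the 11. Dbp was such a low gene, and its call was lost under none of the settings that tested it.

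**Figure D1:**
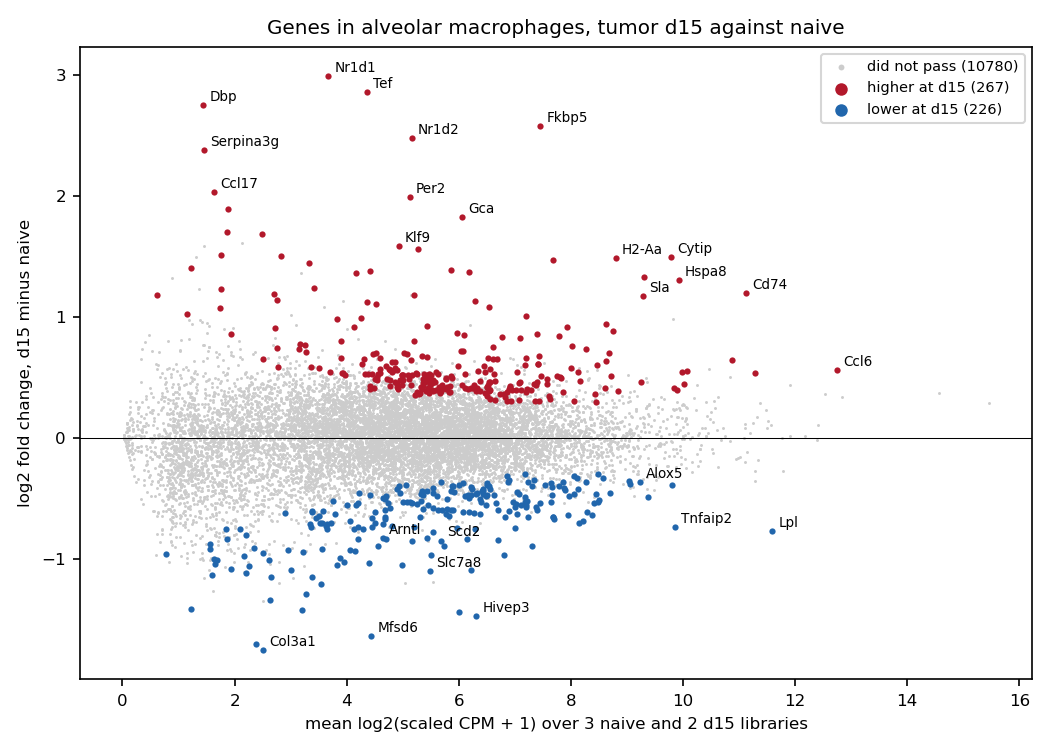
Each point is 1 of 11273 genes, with its mean log2(scaled CPM + 1) over the 3 naive and 2 d15 libraries on the x axis and its log2 fold change, d15 minus naive, on the y axis. Red points (267) rose and blue points (226) fell by limma at an adjusted p of 0.05, and grey points did not pass. The rises of Nr1d1, Tef, Fkbp5 and Nr1d2 stand above a log2 fold change of 2, whereas the largest fall is at -1.75.

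Clock genes held the largest rises. Of 20 tested genes of the core clock and its output, 7 rose and 1 fell, with a median log2 fold change of 0.32. Over all genes tested the shares were 2.37% and 2.0%. Nr1d1, the gene of the repressor REV-ERB alpha, was at 3.82, 4.46 and 5.53 scaled CPM in the naive libraries and at 43.2 and 43.2 in the d15 libraries. Its log2 fold change was 2.99 with a standard error (SE) of 0.17 (limma adjusted p = 9.10e-06). The paralog Nr1d2 was at 15.5, 16.1 and 19.7 in naive and 95.0 and 104 in d15 libraries (log2 fold change 2.48, adjusted p = 3.25e-06). Both d15 libraries thus stood several-fold above every naive library for both repressor genes. Tef, a transcription factor of the PAR bZIP family that carries clock output, was at 8.49, 7.87 and 8.54 in naive and at 57.7 and 75.8 in d15 libraries (log2 fold change 2.85, adjusted p = 3.25e-06). Its relative Dbp was low, at 0.387, 0.161 and 0.265 in naive and 7.06 and 8.02 in d15 libraries (log2 fold change 2.75, adjusted p = 0.000107). Every fold change given is on the log2(value + 1) scale and so understates that of a low gene, and edgeR on the recovered reads gave 4.89 for Dbp.

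Genes of the negative limb of the clock rose too, and Arntl fell. Per2 was at 24.6, 19.0 and 14.8 scaled CPM in naive and 57.3 and 108 in d15 libraries (log2 fold change 1.99, adjusted p = 0.00661). Its d15 libraries lay far apart from each other, both above every naive library. Per3 was at 1.46, 0.482 and 2.07 against 3.60 and 7.84 (log2 fold change 1.51, adjusted p = 0.0397) and the cryptochrome gene Cry2 at 3.82, 3.87 and 3.30 against 8.20 and 11.3 (log2 fold change 1.19, adjusted p = 0.0137). Arntl was at 31.4, 29.6 and 30.4 in naive and at 16.6 and 16.8 in d15 libraries, a log2 fold change of -0.83 (adjusted p = 0.00379). The 2 d15 values of Arntl nearly coincided and lay well under all 3 naive values. On the recovered reads the call of Per3 was lost by limma-voom (adjusted p = 0.0511) and by edgeR (adjusted p = 0.0542). Members that did not pass included Per1 (log2 fold change 1.18, adjusted p = 0.0814), Clock (0.090, adjusted p = 0.691), Cry1 (-0.26, adjusted p = 0.310) and the repressor gene Bhlhe41 (-0.50, adjusted p = 0.106). When d15 replicate B was left out, the adjusted p was 0.0973 for Per2, 0.305 for Per3, 0.185 for Cry2, 0.0595 for Arntl and 0.00730 for Dbp. Calls were also lost for Per3 (0.0553) without d15 replicate A, Per3 (0.0683) without naive replicate 1, Per3 (0.121) and Cry2 (0.0544) without naive replicate 2 and Per3 (0.0561) and Cry2 (0.0512) without naive replicate 3, each with its adjusted p.

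At d35 the levels of these genes lay near the naive ones. Nr1d1 was at 5.05, 6.83 and 5.63 scaled CPM in the d35 libraries, Nr1d2 at 21.4, 21.7 and 23.6, Tef at 10.9, 9.84 and 9.22 and Arntl at 28.6, 33.9 and 31.0. The d35-minus-d15 difference on the log2 scale was -2.70 for Nr1d1, -2.11 for Nr1d2, -2.62 for Tef, -1.77 for Per2 and 0.86 for Arntl (adjusted p = 1.70e-05, 1.32e-05, 1.32e-05, 0.00426 and 0.000897). This comparison, in which 7.39% of all genes tested passed, shares the d15 libraries with the one against naive. Clock gene levels swing with the hour of day in most tissues, and the hour of harvest is not given for any group.

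Clock factors bind short motifs, and stretches around them are shown for 3 of these genes because the motifs are those through which the clock proteins act on each other. Promoters were taken from RefSeq (GRCm38.p6), 250 bases before to 50 bases after each start, for 9047 of the 11273 tested genes, matched by symbol. The E-box CACGTG, the site of BMAL1 and CLOCK, was found on either strand in 9.99% of 11582 promoters of tested genes, in 12.8% of 266 promoters of genes that rose and in 8.56% of 257 of genes that fell. The D-box TTATGTAA, bound by DBP and TEF, was found in 0.518% of all of them, and the core TAGGTCA, bound by REV-ERB and ROR proteins, in 1.87%. In promoters of genes that rose and of genes that fell, the D-box shares were 0.752% and 0%. Those of the core were 3.38% and 1.17%. Both annotated Tef starts held 1 E-box (plus strand, chr15:81802526-81802571 and chr15:81811256-81811301). The Per3 promoter held 2 D-boxes (minus strand, chr4:151044796-151044890), and 1 Arntl promoter held the REV-ERB and ROR core just after the start (plus strand, chr7:113207531-113207557). A match is a description of these letters and not a measured site. Nr1d1, Nr1d2, Dbp and Cry2 held none of the motifs searched in this window. Capitals mark the motifs, and each stretch is written 5′ to 3′ along the gene's strand.
Tef, first start: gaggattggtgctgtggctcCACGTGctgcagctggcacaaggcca
Tef, second start: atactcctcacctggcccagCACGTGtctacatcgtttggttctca
Per3: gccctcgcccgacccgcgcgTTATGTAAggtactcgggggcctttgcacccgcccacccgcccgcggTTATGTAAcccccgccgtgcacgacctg
Arntl: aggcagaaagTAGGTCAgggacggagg

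Fkbp5, a co-chaperone that is a standard target of the glucocorticoid receptor, had the largest rise outside the clock list among genes whose mean log2 value reached 3. It was at 91.1, 80.3 and 83.6 scaled CPM in naive, 384 and 679.8 in d15 and 66.1, 79.2 and 101 in d35 libraries, a log2 fold change of 2.57 at d15 (SE 0.21, adjusted p = 0.000246) and a d35-minus-d15 difference of -2.64 (adjusted p = 0.000101). Klf9, a transcription factor induced by glucocorticoids and under clock control, was at 18.6, 17.8 and 19.4 in naive and 42.6 and 78.5 in d15 libraries (log2 fold change 1.59, adjusted p = 0.00521), and at 27.95, 31.1 and 36.3 at d35. For both genes d15 replicate B was the higher of the d15 libraries. No d15 value reached down to a naive one, as in all 267 genes that rose. These were 2 of 22 tested glucocorticoid targets to rise, and none fell, with a median log2 fold change of 0.23. Over all genes tested 2.37% rose. The leucine zipper gene Tsc22d3, another standard target, was at 1474, 393 and 568 against 1084 and 1709.5 and did not pass (log2 fold change 0.98, adjusted p = 0.189), nor did Dusp1 (0.57, adjusted p = 0.352) or the metallothionein genes Mt1 and Mt2 (0.29 and 0.18, adjusted p = 0.171 and 0.599). The receptor gene itself, Nr3c1, had a log2 fold change of 0.025 (adjusted p = 0.896). The palindromic glucocorticoid response element, searched on both strands, was found in 1 of the 11582 promoters, and in none of a changed gene, in windows of 300 bases. An exact match this rare cannot tell changed genes from others, so its absence from them says nothing about the receptor.

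**Figure D2:**
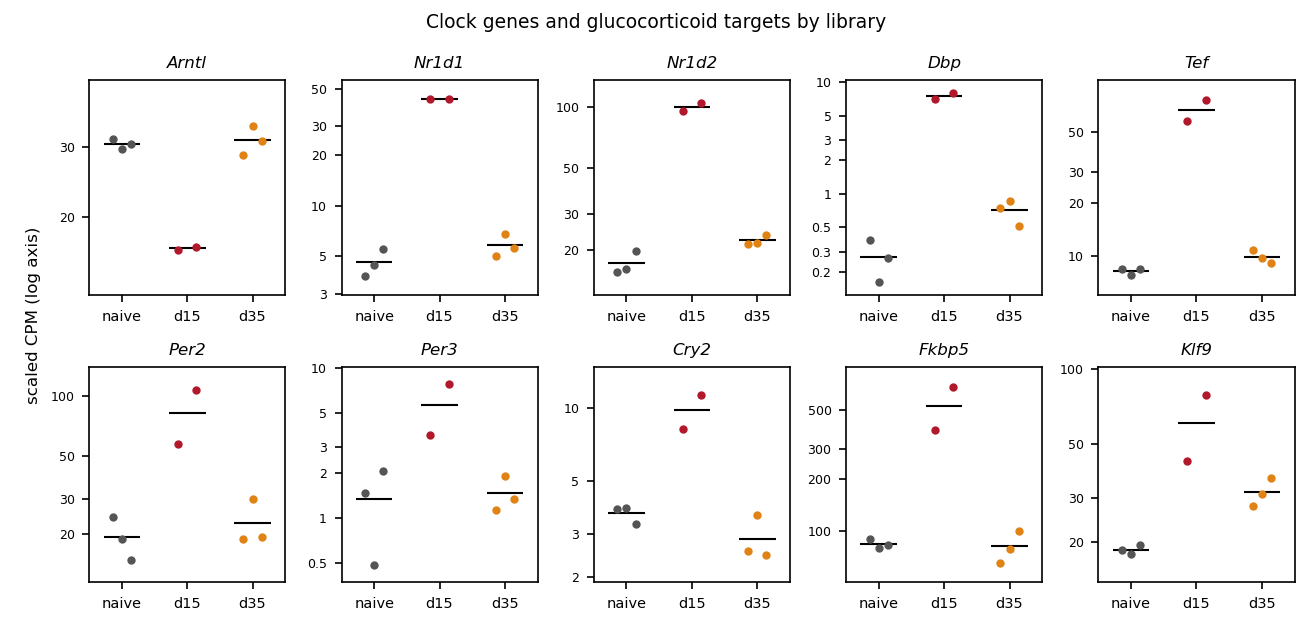
Scaled CPM (log axis, with its own range in each panel) of 8 clock genes and 2 glucocorticoid targets in the 3 naive (grey), 2 d15 (red) and 3 d35 (orange) libraries. Each point is 1 library and the black line is the group mean. The d15 points lie above all naive and all d35 points in every panel but that of Arntl, where they lie under both groups.

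Outside the clock and glucocorticoid lists, Gca, Cytip, Egfem1, Gpr141 and Klhl6 were among the 15 largest rises. Gca, which encodes the calcium-binding leukocyte protein grancalcin, was at 42.4, 35.2 and 40.8 scaled CPM in naive and 122 and 165 in d15 libraries (log2 fold change 1.82, SE 0.13, adjusted p = 0.000107). Cytip, a cytohesin-binding scaffold of leukocyte adhesion, was at 672, 529 and 553 against 1438 and 1874 (log2 fold change 1.495, adjusted p = 0.00278), and Sla, an adaptor that damps receptor signalling, at 443, 445 and 466 against 946 and 1097 (1.17, adjusted p = 0.000719). In all 3 genes the d15 libraries lay far above the naive ones and B above A. Gpr141, an orphan G protein-coupled receptor gene, was at 42.5, 32.8 and 41.7 against 103 and 103 (log2 fold change 1.39, adjusted p = 0.00278). Egfem1, a gene with EGF-like and EMI domains, rose by a log2 fold change of 1.45 (adjusted p = 0.00278), and Klhl6, a ubiquitin ligase adaptor, by 1.37 (adjusted p = 0.00661). Ptpn1, which encodes the phosphatase PTP1B, was at 301, 335 and 281 against 522 and 657 (0.94, adjusted p = 0.00637), and St7 at 82.5, 86.8 and 88.2 against 149 and 159 (0.84, adjusted p = 0.000867). In the GENCODE M21 annotation (mm10) Gca is a protein-coding gene at chr2:62664285-62694109 (plus strand), and Cytip lies at chr2:58129137-58195532 (minus strand). Without d15 replicate B, 5 of these 8 calls were lost (adjusted p from 0.0516 to 0.106), and no other single library ended one.

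Several of these genes were near or under their naive level at d35. Gca was at 41.0, 38.1 and 45.1, Cytip at 472, 725 and 612, Gpr141 at 34.4, 26.3 and 39.6 and Egfem1 at 5.01, 6.56 and 4.75 scaled CPM in the d35 libraries, with d35-minus-d15 log2 differences of -1.76, -1.47, -1.62 and -1.53 (adjusted p = 7.31e-05, 0.000935, 0.000286 and 0.000670). Sla, at 577, 728 and 724, and Klhl6, at 94.5, 75.1 and 81.7, lay between the naive and d15 levels at d35, and their d35-minus-d15 differences of -0.60 and -0.61 had adjusted p = 0.0102 and 0.0840. Other rises at d15 were small beside the d35 level. Mmp12, the macrophage metalloelastase gene, was at 18.2, 34.3 and 22.6 in naive, 80.1 and 66.9 in d15 and 4258, 1476 and 2089 in d35 libraries (d15 log2 fold change 1.56, adjusted p = 0.0427, and d35-minus-d15 difference 4.99, adjusted p = 4.73e-05). Ccl17, a chemokine gene for CCR4-bearing T cells, was at 0.488, 0.704 and 1.15 in naive, 4.58 and 8.26 in d15 and 102, 42.5 and 72.4 in d35 libraries (d15 log2 fold change 2.03, adjusted p = 0.0133). The complement gene C1qb was at 0.454, 1.77 and 1.57 in naive, 5.46 and 9.11 in d15 and 156, 43.8 and 98.5 in d35 libraries (d15 log2 fold change 1.89, adjusted p = 0.0439). In these genes the d15 values lay between the other groups and, in scaled CPM before the log, far nearer to the naive ones. On the log2 scale they lay less close to naive. Serpina3g, a protease inhibitor gene with close copies whose reads may be shared, was at 0.286, 0.210 and 0.831 in naive, 6.08 and 6.69 in d15 and 30.6, 11.1 and 27.5 in d35 libraries (d15 log2 fold change 2.38, adjusted p = 0.00852). By edgeR the d15 log2 fold change was 3.96 for Serpina3g and 3.08 for Ccl17, but edgeR did not call Mmp12 (adjusted p = 0.0536). Limma-voom on the recovered reads called none of Mmp12, Ccl17, C1qb and Serpina3g (adjusted p from 0.0772 to 0.271). With a pseudocount of 4 the calls of Mmp12, Ccl17 and C1qb were lost. Of the 4 calls named here, all 4 were lost without d15 replicate B (adjusted p from 0.120 to 0.297), with losses of 3 without d15 replicate A and 2, 3 and 2 without naive replicates 1, 2 and 3. After length correction 1 of the 4 did not pass (C1qb).

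Antigen presentation genes of both classes rose at d15. Of 17 tested genes of MHC class II and its control, 5 rose and none fell (median log2 fold change 0.44). The share of all genes tested that rose was 2.37%. H2-Aa, an alpha chain gene, was at 246, 274 and 378 scaled CPM in naive, 757 and 899 in d15 and 1121, 506 and 1096 in d35 libraries (d15 log2 fold change 1.48, adjusted p = 0.0268). H2-Eb1 (log2 fold change 1.47), H2-Ab1 (1.33), the invariant chain gene Cd74 (1.199) and the peptide editor gene H2-DMb2 (0.70) also rose, with adjusted p from 0.0320 to 0.0403. The transactivator gene Ciita, which drives class II transcription, had a log2 fold change of 0.36 and did not pass (adjusted p = 0.325), and the co-stimulatory gene Cd86 was at 7.78, 10.2 and 18.5 against 27.7 and 17.8 (adjusted p = 0.105). For H2-Aa, H2-Eb1, H2-Ab1 and Cd74 naive replicate 3 was the highest naive library. Both d15 libraries were above it, as they were above all naive libraries in each of the 267 genes that rose. Class I held 4 rises and no fall among 22 tested genes (median 0.27), namely the light chain gene B2m (1398, 1635 and 1684 against 2405 and 2482), H2-K1, H2-Q6 and H2-Q7, whose log2 fold changes were 0.64, 0.41, 0.80 and 1.13 (adjusted p = 0.0437, 0.0431, 0.0191 and 0.0162). The heavy chain genes have close copies among which reads may be shared. None of the 9 calls passed without d15 replicate B (adjusted p from 0.152 to 0.268), and the number that did not pass was 9 without d15 replicate A and 7, 7 and 9 without naive replicates 1, 2 and 3. After length correction 5 of the 9 did not pass.

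Of 32 interferon induced genes 3 rose and none fell (median 0.21), while 2.37% of all genes tested rose. The guanosine triphosphatase gene Ifi47 was at 10.2, 14.8 and 16.5 against 33.3 and 40.9 (log2 fold change 1.38, adjusted p = 0.0191), the chemokine gene Cxcl9 at 2.07, 2.33 and 3.20 against 9.83 and 10.7 (1.69, adjusted p = 0.0397) and the RNA sensor gene Ifih1 at 40.1, 37.0 and 37.3 against 52.0 and 54.1 (0.47, adjusted p = 0.0266). The naive and d15 values of the 3 genes did not overlap, as in all 493 called genes. The d15 values also lay above all naive ones in 25.9% of all genes tested. Standard type I interferon targets did not pass, with log2 fold changes of -0.35 for Ifit1, -0.50 for Ifit3, 0.089 for Isg15, -0.56 for Rsad2 and -0.28 for Irf7 (adjusted p = 0.638, 0.469, 0.863, 0.586 and 0.617). Outside that list, Ifi204 and Ifi207, DNA-sensor family genes with close copies, also rose (log2 fold changes 1.18 and 1.01, adjusted p = 0.00278 and 0.00581), and the inhibitory Fc receptor gene Fcgr2b rose by 0.92 (adjusted p = 0.0255). The H2-Aa promoter is shown because class II promoters are known for a conserved box that resembles the cAMP response element TGACGTCA. That motif was found in 3.09% of the 11582 promoters of tested genes, in 5.26% of those of genes that rose and in 2.33% of those of genes that fell. In H2-Aa it lies at chr17:34287870-34287917 (minus strand, GRCm38.p6) in capitals. Leaving out d15 replicate B ended all 6 of these calls (adjusted p from 0.0595 to 0.241), and the number ended was 4 without d15 replicate A and 1, 4 and 3 without naive replicates 1, 2 and 3. After length correction 1 of the 6 did not pass (Cxcl9).
H2-Aa: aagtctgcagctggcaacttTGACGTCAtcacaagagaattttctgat

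The transporter genes Mfsd6, Slc7a8 and Slc2a6 were among the 15 largest falls. Mfsd6, a major facilitator transporter gene, was at 31.0, 32.3 and 36.4 scaled CPM in naive, 10.7 and 9.30 in d15 and 13.8, 14.2 and 19.96 in d35 libraries (d15 log2 fold change -1.64, SE 0.16, adjusted p = 0.000867). Slc7a8, which encodes the neutral amino acid transporter LAT2, was at 59.0, 60.7 and 59.9 in naive, 29.2 and 25.6 in d15 and 52.5, 56.2 and 59.2 in d35 libraries (-1.10, SE 0.091, adjusted p = 0.000246). The naive values of Slc7a8 lay within a narrow band that the d35 libraries nearly reached and the d15 libraries did not. Its d35-minus-d15 difference was 1.00 (adjusted p = 0.000183). The glucose transporter gene Slc2a6 was at 16.3, 23.6 and 15.4 in naive, 7.88 and 8.57 in d15 and 29.4, 19.98 and 24.0 in d35 libraries (-1.05, adjusted p = 0.0224, and d35-minus-d15 difference 1.45, adjusted p = 0.00189). Of 21 tested amino acid transporter genes, Slc7a8 and the cationic transporter gene Slc7a1 (-0.73, adjusted p = 0.0410) fell and none rose, with a median of -0.067. Among all genes tested 2.0% fell. Mfsd6 lies at chr1:52656286-52727462 (minus strand) and Slc7a8 at chr14:54722209-54781946 (minus strand), in the same annotation. Without d15 replicate B, 2 of these 4 calls were lost (adjusted p from 0.171 to 0.259), and the number lost was 2 without d15 replicate A and 0, 2 and 1 without naive replicates 1, 2 and 3. After length correction 1 of the 4 did not pass (Slc7a1).

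Hivep3, Ets1 and Scml4, genes of nuclear regulators, were also among the 15 largest falls. Hivep3, a zinc finger factor gene, was at 104, 161 and 98.6 against 43.3 and 40.9 scaled CPM (log2 fold change -1.47, adjusted p = 0.0231). The factor gene Ets1 was at 11.3, 20.2 and 15.5 against 5.14 and 7.11 (-1.21, adjusted p = 0.0224) and the Polycomb-like gene Scml4 at 12.96, 13.6 and 13.3 against 5.17 and 5.75 (-1.15, adjusted p = 0.00833). For Ets1 and Hivep3 the naive libraries spread widely, replicate 2 being the highest, whereas those of Scml4 were almost equal. Fosl2, an AP-1 subunit gene, was at 97.5, 96.2 and 92.8 against 55.6 and 57.0 (-0.75, adjusted p = 0.00170). Of 39 listed transcription factor genes of alveolar macrophages 2 rose (Pparg and Klf9) and 4 fell, which besides Hivep3 and Ets1 were Zeb2 (-0.47) and the retinoic acid receptor gene Rara (-0.53). In the NF-kB list 3 subunit genes fell, Nfkb1 (-0.39), Nfkb2 (-0.49) and Rel (-0.59), with adjusted p = 0.0253, 0.0413 and 0.0445, and none of the 26 tested genes of that list rose (median -0.10). Both lists are to be read beside the 2.37% of all genes tested that rose and the 2.0% that fell. The inhibitor gene Nfkbia (0.58) and the cytokine genes Tnf (0.41) and Il1b (-1.19) did not pass (adjusted p = 0.336, 0.798 and 0.148). Of the 9 calls named here, 8 were lost without d15 replicate B (adjusted p from 0.0973 to 0.318), with losses of 8 without d15 replicate A and 5, 7 and 6 without naive replicates 1, 2 and 3. After length correction 3 of the 9 did not pass (Zeb2, Rara and Rel).

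The other genes among the 15 largest falls, leaving Kdr aside, differ in function. Fmnl3, a formin gene, was at 41.2, 43.4 and 39.5 scaled CPM in naive, 21.2 and 17.8 in d15 and 44.9, 32.6 and 32.3 in d35 libraries (d15 log2 fold change -1.05, adjusted p = 0.00589). Trp53i11 was at 101, 88.0 and 97.0 against 38.3 and 30.8 (-1.44, adjusted p = 0.0241). Falls with log2 fold changes of -1.29 and -1.42 were seen in Ripor2, a RhoA inhibitor gene, and Amer2, an APC-binding protein gene. Nav2, a neuron navigator gene, Dgkg, a diacylglycerol kinase gene, Xylt1, a xylosyltransferase gene, and Rasgrp4, a Ras activator gene, had log2 fold changes of -1.09, -1.03, -1.03 and -0.99. The adjusted p of these 6 genes lay between 0.00773 (Xylt1) and 0.0382 (Nav2). Activators of small GTPases that reshape actin fell in 6 of 32 tested cases, against 2.0% of all genes tested, and none rose. Arhgef1, Vav3, Dock2, Dock8 and Elmo1 were among the 6, with log2 fold changes from -0.54 (Vav3) to -0.29 (Elmo1) and a list median of -0.30. Corrected for transcript length, that median was -0.21 and 2 of the 32 fell. Chromatin genes, which are long, were counted with 8 falls and no rise among 48 (median -0.30), and 1 fall and a median of -0.13 after length correction. Among the 8 were the histone methyltransferase genes Kmt2a and Kmt2b, the remodeller genes Chd2, Chd4 and Arid1b, and the cofactor genes Ncoa3 and Hdac7, with log2 fold changes from -0.88 (Hdac7) to -0.37 (Ncoa3). None of the 20 calls passed without d15 replicate B (adjusted p from 0.0973 to 0.303), and the number that did not pass was 15 without d15 replicate A, 13, 17 and 15 without naive replicates 1, 2 and 3 and 1 without d35 replicate 1. After length correction 11 of the 20 did not pass. On the recovered reads limma-voom lost 9 of the 20 and edgeR 5.

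**Figure D3:**
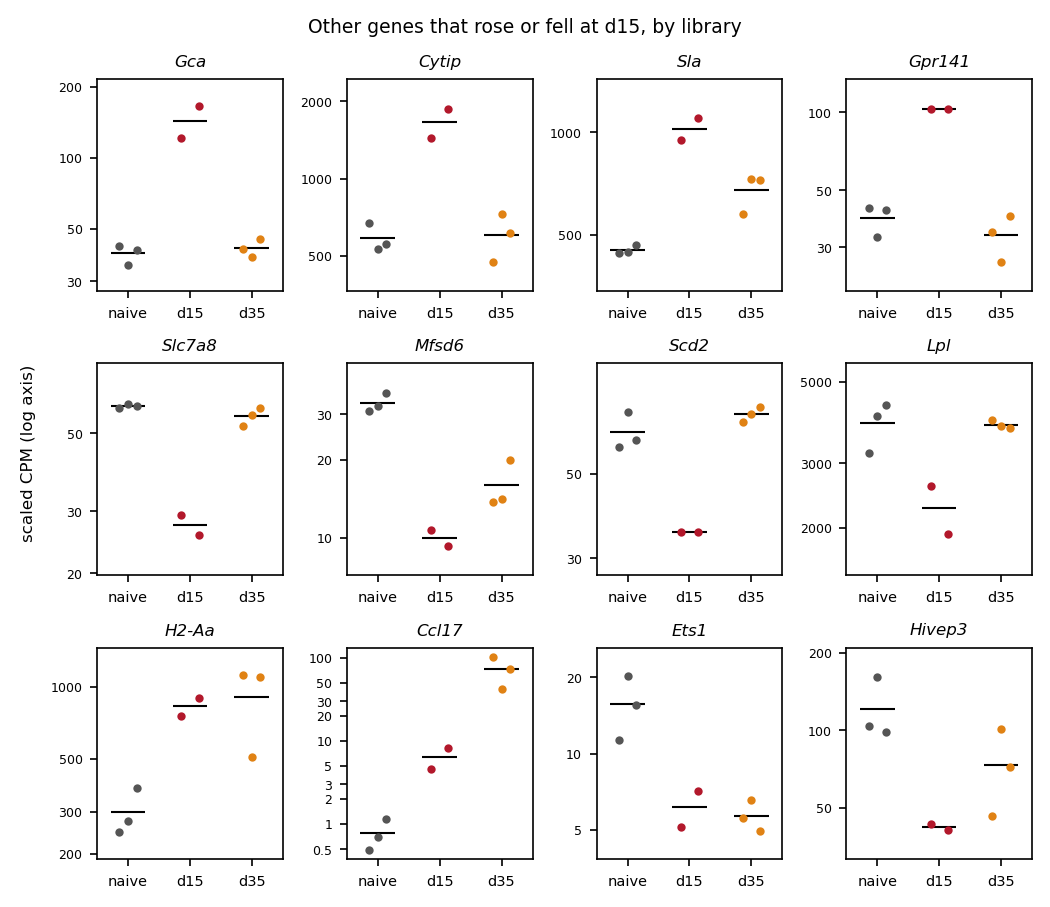
Scaled CPM (log axis, with its own range in each panel) of 12 genes that rose or fell at d15, in the 3 naive (grey), 2 d15 (red) and 3 d35 (orange) libraries, with the group mean as a black line. In Gca, Cytip and Gpr141 the d35 points lie near the naive ones, and in Ccl17 they lie above both other groups.

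Lipid genes moved in both directions, as did all genes tested, of which 2.37% rose and 2.0% fell. Pparg, the receptor gene that maintains alveolar macrophages, was at 359, 319 and 314 scaled CPM in naive, 488 and 540.4 in d15 and 285, 339 and 301 in d35 libraries (d15 log2 fold change 0.64, adjusted p = 0.00852, and d35-minus-d15 difference -0.74, adjusted p = 0.00163). The triglyceride synthesis gene Dgat2 (0.60, adjusted p = 0.0241) and the triglyceride lipase gene Pnpla2 (0.76, adjusted p = 0.0328) rose too. The log2 fold change of Pnpla2 was 0.49 without d15 replicate B. The lipoprotein lipase gene Lpl, the most abundant gene to fall, was at 3191, 4049 and 4320.3 in naive, 2607 and 1928 in d15 and 3934, 3782 and 3744 in d35 libraries (d15 log2 fold change -0.77, adjusted p = 0.0266). Other members of this list of 27 did not pass, among them the fatty acid carrier genes Fabp4 (0.13, adjusted p = 0.692) and Cd36 (-0.064, adjusted p = 0.788) and the lipid droplet gene Plin2 (0.085, adjusted p = 0.657). Targets of liver X receptors and sterol response genes held 5 falls and no rise among 28 tested (median -0.027). The desaturase gene Scd2 was at 59.0, 72.7 and 61.3 against 35.1 and 35.2 (-0.85, adjusted p = 0.00278) and the cholesterol exporter gene Abca1 at 114, 156 and 121 against 71.6 and 72.3 (-0.84, adjusted p = 0.00692). Srebf1 (-0.49), Npc1 (-0.31) and Lpl were the others, while the exporter gene Abcg1 (-0.21) did not pass (adjusted p = 0.233). Leaving out d15 replicate B ended all 8 of these calls (adjusted p from 0.0595 to 0.305), and the number ended was 4 without d15 replicate A and 2, 6 and 5 without naive replicates 1, 2 and 3. After length correction 2 of the 8 did not pass (Srebf1 and Npc1).

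Chaperone genes rose in 4 of 30 tested cases, against 2.37% of all genes tested, and none fell (median 0.23). Hspa8, the constitutive HSP70 gene, was at 926, 542 and 611 scaled CPM in naive and 1787 and 1557 in d15 libraries (log2 fold change 1.305, adjusted p = 0.00852), with naive replicate 1 the highest of the naive libraries. Dnaja1 (0.87), Hsph1 (0.66) and Chordc1 (0.65) of the same list rose as well, with adjusted p = 0.0253, 0.0476 and 0.0253. The inducible genes Hspa1a and Hspa1b, which respond to heat and to tissue handling, had log2 fold changes of -0.31 and 0.16 and did not pass (adjusted p = 0.878 and 0.950). Of 18 tested genes of tissue dissociation, Hspa8 and Ier3 (1.36, adjusted p = 0.0350) rose and none fell. The summed level of that list was 5683 scaled CPM in naive replicate 1, 10413 in naive replicate 2, 9942 in naive replicate 3, 10048 in d15 replicate A and 11540.0 in d15 replicate B. Its part in the chaperone result was not tested. Without d15 replicate B, all 5 of these calls were lost (adjusted p from 0.0973 to 0.225), and the number lost was 5 without d15 replicate A and 1, 4 and 4 without naive replicates 1, 2 and 3. After length correction 1 of the 5 did not pass (Ier3).

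Genes of the unfolded protein response split. The factor gene Xbp1 (1007, 869.5 and 867 against 1187 and 1304 scaled CPM, log2 fold change 0.45), the degradation gene Herpud1 (0.67) and Creld2 (0.42) rose, while the sensor genes Ern1 (27.0, 28.1 and 25.0 against 16.5 and 15.6, -0.70) and Atf6 (-0.44) and the pseudokinase gene Trib3 (-0.91) fell, among 25 tested (median -0.025). Ern1 encodes the enzyme that splices Xbp1 mRNA. Adjusted p ran from 0.00833 for Ern1 to 0.0413 for Atf6. The stress factor genes Ddit3 (0.17) and Atf4 (-0.24) and the chaperone gene Hspa5 (0.34) did not pass (adjusted p = 0.550, 0.165 and 0.131). In the lysosome list of 33, Atp6v0d2 (2094, 2120.0 and 2229 against 3056 and 3174), Atp6v0e and the factor gene Mitf rose by 0.54, 0.36 and 0.63, and Npc1 fell. Rises made up 2.37% and falls 2.0% of all genes tested. Of the 9 calls named here, all 9 were lost without d15 replicate B (adjusted p from 0.120 to 0.301), with losses of 8 without d15 replicate A and 3, 6 and 6 without naive replicates 1, 2 and 3. After length correction 4 of the 9 did not pass.

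Immune regulatory genes changed in both directions. Cd274, which encodes the checkpoint ligand PD-L1, was at 312, 355 and 357 against 247 and 178 scaled CPM (log2 fold change -0.70, adjusted p = 0.0191), and the inhibitory receptor gene Lilrb4a, which has a close copy, at 318, 418 and 383 against 240.0 and 244 (-0.61, adjusted p = 0.0277). They were the falls among 16 tested checkpoint and co-stimulatory genes, none of which rose (median -0.13). The log2 fold change of Cd274 was -0.46 without d15 replicate B. Of 22 tested genes of the interleukin 4 response 3 rose and 1 fell (median 0.12), beside shares of 2.37% and 2.0% over all genes tested. Il4ra, the interleukin 4 receptor gene, rose by 0.51 (adjusted p = 0.0300), as did Ccl17 and the ribonuclease gene Ear2 (862, 803 and 943 against 1172 and 1375, 0.55, adjusted p = 0.0255), while the factor gene Irf4, induced downstream of that receptor, fell from 4.02, 5.37 and 4.86 to 2.59 and 2.02 (-0.80, adjusted p = 0.0362) and was at 11.6, 8.93 and 10.2 at d35. The abundant chemokine gene Ccl6 was at 5574, 6007 and 6044 against 8068 and 9302 (0.56, adjusted p = 0.0378). Alox5, the leukotriene pathway lipoxygenase gene, was at 666, 663 and 666 against 521 and 511 (-0.36, adjusted p = 0.0253). That fall was under 1.5-fold, and the libraries of each group lay close together. Tnfaip2 fell from 1114, 1195 and 1102 to 758 and 613 (-0.74, adjusted p = 0.00583). Among 21 colony stimulating factor and 29 TGF-beta pathway genes none passed limma (medians -0.11 and -0.23), with 4 and 12 at an unadjusted p under 0.05. In these lists edgeR called 0 and 0 and DESeq2 2 and 6 genes, and the smallest p belonged to the cytokine signalling suppressor gene Socs2 (0.59, adjusted p = 0.0531) and the SMAD ubiquitin ligase gene Smurf1 (-0.36, adjusted p = 0.0656). None of the 8 calls passed without d15 replicate B (adjusted p from 0.0973 to 0.282), and the number that did not pass was 6 without d15 replicate A and 3, 7 and 7 without naive replicates 1, 2 and 3. After length correction 3 of the 8 did not pass (Ear2, Irf4 and Ccl6).

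Surface receptor and adhesion genes gave scattered calls, to be read beside the 2.37% of all genes tested that rose and the 2.0% that fell. P2ry14, the receptor gene for UDP-sugars, was at 138, 145 and 148 scaled CPM in naive and 222 and 218 in d15 libraries (log2 fold change 0.61, adjusted p = 0.00899), and with the adenosine receptor gene Adora2b (0.76, adjusted p = 0.0386) it rose among 14 purinergic genes (median 0.035). The death receptor gene Fas was at 28.7, 29.3 and 27.9 against 44.8 and 45.8 (0.64, adjusted p = 0.00583), the rise among 25 p53 target genes, in which Trp53i11 fell (median 0.071). Each of P2ry14 and Fas was nearly equal within its groups. Ly96, which encodes the lipopolysaccharide co-receptor MD-2, was the single call among 25 Toll-like receptor genes (0.59, adjusted p = 0.0439, median -0.093). Of 25 complement and coagulation genes C1qb and the factor X gene F10 rose (158, 173 and 165 against 238 and 225, 0.49, adjusted p = 0.00883) and none fell (median 0.14). Falls were those of the integrin gene Itgal (-0.35), 1 of 2 falls among 25 adhesion genes, of Sema4a (-0.31) among 14 semaphorin and plexin genes, and of the Wnt co-receptor gene Lrp6 (-0.39) and the Hippo pathway gene Wwtr1 (-0.43) among 27 genes of Wnt, Notch and Hippo signalling, with medians of -0.20, -0.31 and -0.17 and adjusted p from 0.0206 to 0.0456. Among 25 uptake genes Fcgr2b rose while the endocytic receptor gene Lrp1 (1023, 1022 and 927 against 754 and 758, -0.39, adjusted p = 0.0476) and Elmo1 fell (median -0.064), and among 23 matrix protease genes Mmp12 rose and the sheddase gene Adam17 fell (-0.47, adjusted p = 0.0398, median 0.026). Of 25 chemokine and receptor genes 3 rose (Ccl6, Ccl17 and Cxcl9) and Cx3cr1 fell (median 0.26). Leaving out d15 replicate B ended all 11 of these calls (adjusted p from 0.0973 to 0.304), and the number ended was 10 without d15 replicate A and 7, 8 and 8 without naive replicates 1, 2 and 3. After length correction 6 of the 11 did not pass.

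Metabolic and stress lists held few calls each. Over all genes tested 2.37% rose and 2.0% fell, so 1 call in a list of 35 genes is near that share. The mitophagy receptor genes Bnip3 (12.1, 9.60 and 11.2 against 17.1 and 22.7 scaled CPM, 0.80, adjusted p = 0.0397) and Bnip3l (0.38, adjusted p = 0.0332) rose among 30 genes of glycolysis and hypoxia. In the same list Slc2a6 and Epas1, which encodes the hypoxia factor HIF-2 alpha, fell (27.3, 36.1 and 32.7 against 14.1 and 21.4, -0.84, adjusted p = 0.0266), and the median was 0.044. Eci1 and Eci2, isomerase genes of fatty acid oxidation, were the 2 rises among 35 genes of that pathway and the tricarboxylic acid cycle (0.37 and 0.65, adjusted p = 0.0476 and 0.0253, median 0.12). The microsomal glutathione transferase gene Mgst1 rose (355, 349 and 391 against 472 and 569.9, 0.51, adjusted p = 0.0291) and the thioredoxin reductase gene Txnrd1 fell (-0.43, adjusted p = 0.0403) among 28 oxidative stress genes (median 0.20). The iron sensor gene Fbxl5 was at 323, 292 and 284 against 477 and 435 (0.61, adjusted p = 0.0155) and the metal importer gene Slc39a14 fell (-0.42, adjusted p = 0.0251) among 25 metal handling genes (median 0.075). Sphingomyelin synthase gene Sgms2 and the lysosomal membrane protein gene Gpr137b fell among 29 sphingolipid and surfactant genes (-0.63 and -0.54, adjusted p = 0.0335 and 0.0169, median 0.040). Alox5 was the fall among 18 eicosanoid genes (median 0.016), E2f2 that among 35 cell cycle genes (-0.73, adjusted p = 0.0422, median 0.12), and Ier3 and Fosl2 the rise and the fall among 23 genes of MAP kinase feedback (median 0.0059). Outside these lists, the abundant membrane protein gene Serinc3 rose (971, 843 and 964 against 1154 and 1590.1, 0.55, adjusted p = 0.0402) and Gsap, which encodes a gamma-secretase activator, fell (748, 794 and 751 against 605 and 491, -0.49, adjusted p = 0.0397). Large falls of low genes were those of the ubiquitin ligase gene Rnf144a (4.32, 8.29 and 10.9 against 1.55 and 1.59, -1.70, adjusted p = 0.0161) and of Lad1, a basement membrane anchor gene (6.47, 10.2 and 7.62 against 2.85 and 2.26, -1.34, adjusted p = 0.00852). Without d15 replicate B the log2 fold changes of Serinc3 and Eci2 were 0.32 and 0.42, and without d15 replicate A that of Epas1 was -0.55. Without d15 replicate B, all 16 of these calls were lost (adjusted p from 0.0516 to 0.305), and the number lost was 12 without d15 replicate A, 8, 15 and 14 without naive replicates 1, 2 and 3 and 1 without d35 replicate 1. After length correction 6 of the 16 did not pass.

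**Figure D4:**
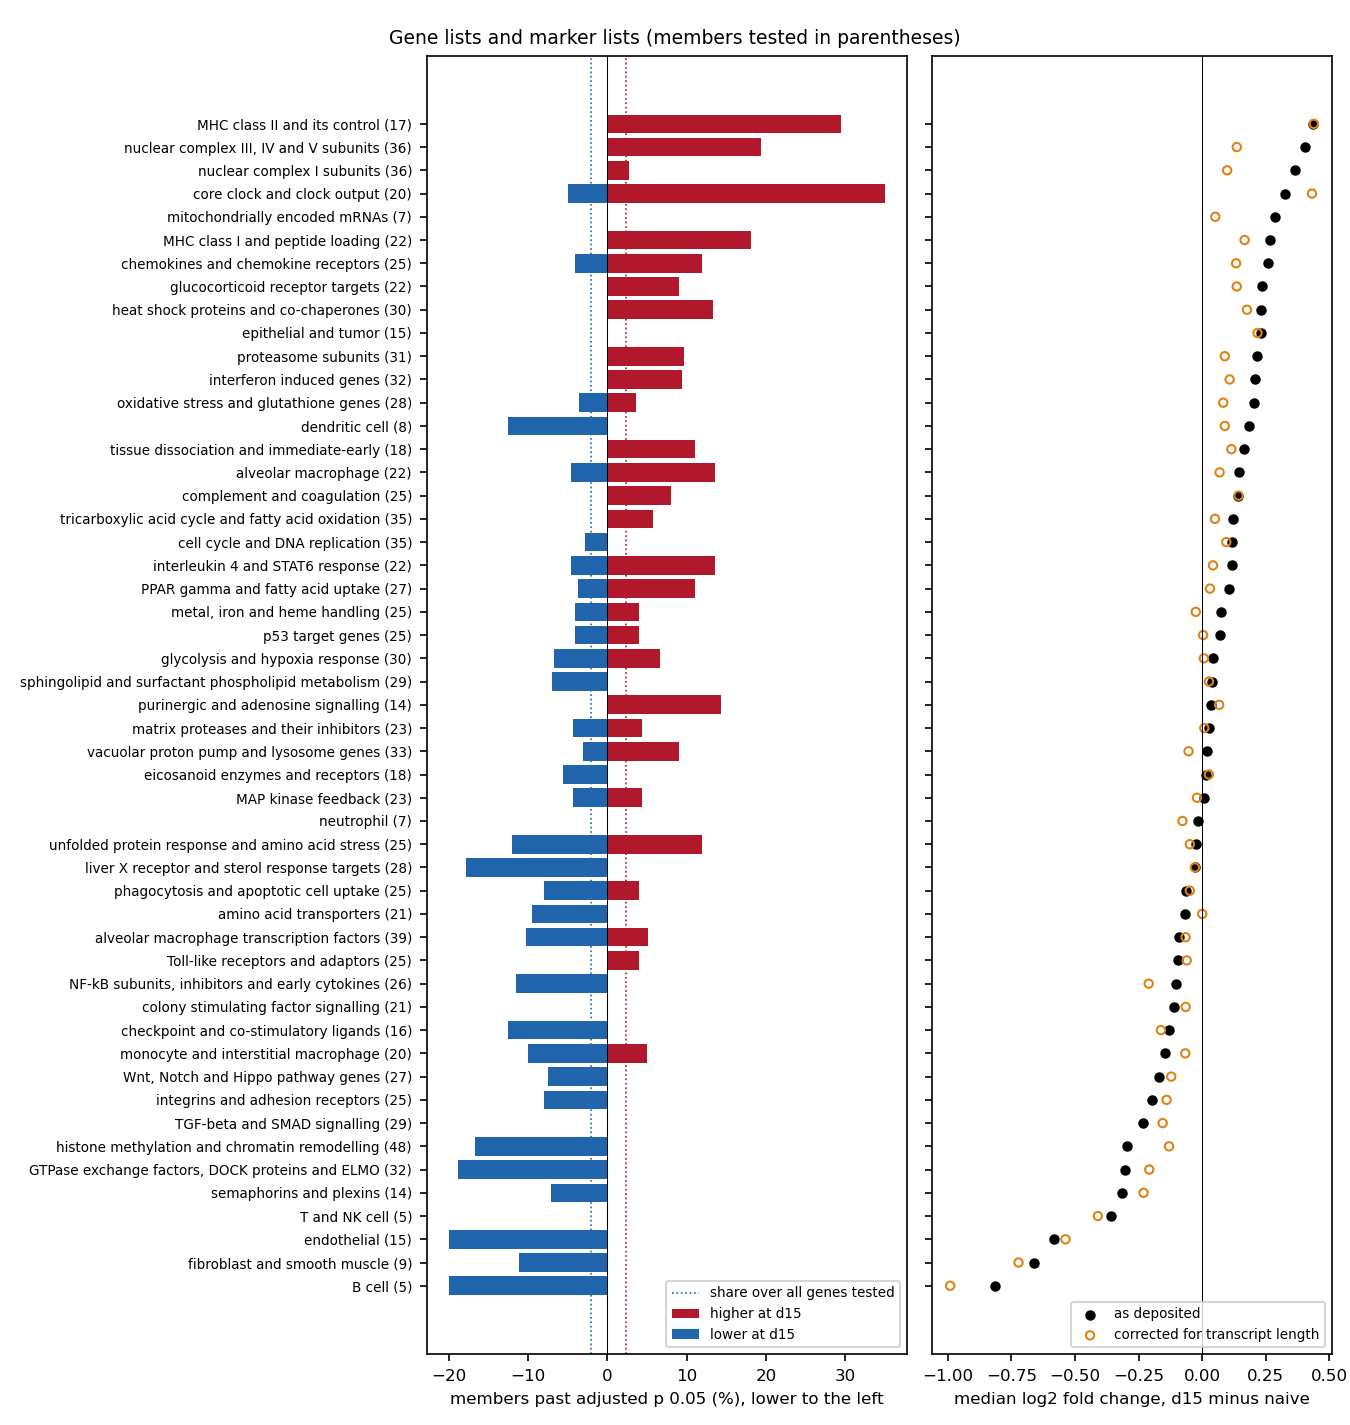
Left, share of the tested members of each list that rose (red, right) or fell (blue, left) by limma at d15, in percent, with the share over all genes tested (2.37% and 2.0%) as dotted lines. Right, median log2 fold change of each list as deposited (black) and corrected for transcript length (open orange); lists with 5 or more tested members are shown. The clock list has the largest share of rises, and the medians of respiratory chain, chromatin and GTPase activator lists move toward 0 with the correction.

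Genes with short transcripts were mostly higher and those with long ones mostly lower at d15. Genes were divided into 5 bins of nearly equal size by their longest annotated transcript (GENCODE M21). The median log2 fold change was 0.18 in the shortest bin (255 to 2023 bases) and -0.14 in the longest (5260 bases and more), with 0.055, -0.0045 and -0.050 between them. The shortest bin held 103 rises and 2 falls, the longest 24 rises and 97 falls. Both d15 libraries showed the slope, with a median deviation from the naive mean of 0.16 and 0.20 in the shortest bin, while the naive libraries lay between -0.053 and 0.052 there. The median transcript length was 2625 bases among rises and 5019 among falls, against 3424 over all genes tested. After a length correction fitted in each library, limma called 345 genes, 3.06% of those tested, of which 286 were among the 493.

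Respiratory chain and ribosomal protein genes, which are short, were mostly higher, with a positive log2 fold change in 35 of 36 genes of complexes III to V and 35 of 36 of complex I. Nuclear genes of complexes III, IV and V rose in 7 of 36 cases and none fell (Uqcrfs1, Uqcrh, Cox6c, Atp5e, Atp5h, Atp5j2 and Atp5o, with log2 fold changes from 0.41 to 0.53), with a median of 0.40 that became 0.14 after length correction, when 2 rose. Cox6c, a subunit gene of complex IV, was at 39.6, 41.7 and 43.7 against 57.1 and 64.4 scaled CPM (log2 fold change 0.53, adjusted p = 0.0332, and 0.51, adjusted p = 0.0465, after length correction). Complex I had 1 rise among 36 (Ndufv2, 0.46), near the 2.37% of all genes tested that rose. Its median was 0.37 and became 0.10 after length correction. All 46 tested genes with an Rpl symbol had a positive log2 fold change (median 0.42) and 6 rose (Rpl6, Rpl7, Rpl10, Rpl12, Rpl18 and Rpl19), and after length correction the median was 0.18 and 2 rose. Of 41 tested genes with an Rps symbol 36 had a positive log2 fold change (median 0.45), 5 rose and none fell, and after length correction the median was 0.19 and 1 passed. Rpl7, which has near-identical copies in the genome, was at 83.9, 82.9 and 87.1 against 119 and 126 (0.53, adjusted p = 0.0226). Proteasome subunits gave 3 rises among 31 (Psma4, Psma5 and Psma6, by 0.39, 0.43 and 0.40) and a median of 0.21, or 0.089 corrected. The 7 tested mitochondrially encoded genes held no call by limma (median 0.29), with 0 at an unadjusted p under 0.05, 0 by edgeR and 0 by DESeq2, and mt-Nd5 had the smallest p (0.25, adjusted p = 0.229). Of the 17 calls named here, all 17 were lost without d15 replicate B (adjusted p from 0.205 to 0.325), with losses of 17 without d15 replicate A, 17, 17 and 17 without naive replicates 1, 2 and 3 and 5 without d35 replicate 1. After length correction 13 of the 17 did not pass. On the recovered reads limma-voom lost 13 of the 17 and edgeR 8.

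**Figure D5:**
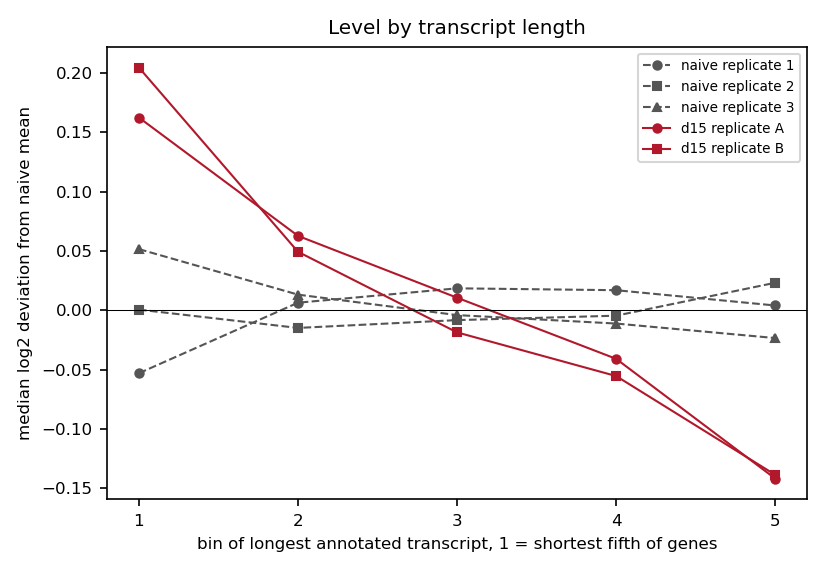
Median log2 deviation from the naive mean (y axis) of genes in 5 bins of transcript length (x axis, 1 = shortest), as 1 line for each naive (dashed grey) and d15 (solid red) library. Both d15 lines run from 0.16 and 0.20 in the shortest bin to near -0.14 in the longest, and the naive lines stay within 0.053 of 0.

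Some markers of other lung cell types fell at d15, to be read beside the 2.0% of all genes tested that fell and the 2.37% that rose. Of 15 endothelial markers 3 fell and none rose (median -0.58), with a summed level of 312 to 422 scaled CPM in naive and 212 to 269 in d15 libraries. Kdr, the VEGF receptor gene, was at 9.67, 12.9 and 7.65 against 5.30 and 3.14 (-1.09, adjusted p = 0.0434), the receptor gene Calcrl at 166, 171 and 176 against 112 and 121 (-0.56, adjusted p = 0.0355) and the von Willebrand factor gene Vwf at 50.4, 71.6 and 52.9 against 36.2 and 39.5 (-0.60, adjusted p = 0.0439). The cadherin gene Cdh5, which defines endothelial cells, was low in all 5 libraries, between 2.36 and 6.26, and did not pass (-0.63, adjusted p = 0.105). Fibroblast markers summed to 21.7 to 52.7 against 18.7 to 21.9, with 1 fall among 9, the collagen gene Col3a1 (5.46, 10.7 and 9.28 against 2.17 and 1.35, adjusted p = 0.0226). B cell markers summed to 19.5 to 27.2 in naive libraries and to 5.48 and 20.3 at d15. Ets1 and Nav2 are also expressed in lymphoid, endothelial or other lung cells, and the part of these cells in their falls was not tested. Epithelial and tumor markers, 15 tested, had no call by limma, with 1 at an unadjusted p under 0.05, 0 by edgeR and 2 by DESeq2, and summed to 417 to 486 in naive and 444 to 458 in d15 libraries. Of the 15, 13 had a positive log2 fold change (median 0.23, or 0.22 after length correction). The smallest p there was that of Cdh1 (-0.50, adjusted p = 0.0886), and the keratin gene Krt8 stayed between 0.118 and 0.336. In the list of 20 monocyte or interstitial macrophage markers 2 fell and C1qb rose. The receptor gene Cx3cr1, 1 of the 2, fell from 1.83, 3.59 and 2.14 to 0.245 and 0.349 (-1.41, adjusted p = 0.0255). Among 8 dendritic cell markers Clec9a, which encodes a receptor for dead cells, fell (3.55, 3.87 and 2.10 against 0.799 and 1.32, -1.003, adjusted p = 0.0423), but 5 of the 8 had a positive log2 fold change (median 0.18). That list summed to 21.1 to 24.4 scaled CPM in naive libraries and to 21.1 and 30.3 in d15 libraries. No call was made among 7 neutrophil, 5 T and NK cell markers and 1 platelet marker, where the smallest adjusted p was 0.105 for Cxcr2 (-0.85), 0.164 for Gzma (-0.49) and 0.659 for Pf4 (0.18). At an unadjusted p under 0.05 these lists held 1, 1 and 0 genes, edgeR called 0, 0 and 0 and DESeq2 1, 0 and 0. The T and NK cell markers summed to 10.8, 11.9 and 10.6 scaled CPM in naive and to 7.70 and 7.95 in d15 libraries. Of the 5 tested, 1 had a positive log2 fold change (median -0.36). Of the 22 alveolar macrophage markers themselves 3 rose (Pparg, Ear2 and Atp6v0d2) and Lpl fell, with a median of 0.15. None of the 6 calls passed without d15 replicate B (adjusted p from 0.187 to 0.305), and the number that did not pass was 6 without d15 replicate A and 3, 6 and 5 without naive replicates 1, 2 and 3. After length correction 2 of the 6 did not pass (Kdr and Vwf). On the recovered reads limma-voom lost 5 of the 6 and edgeR 1 (Kdr).

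Beyond the named pathways, genes were grouped by the letters of their symbols into 121 families with at least 10 tested members, of which 51 held no call. The families named here were picked for the largest shares of calls, and among many small families that choice favors high shares. Over all genes tested the share was 4.37%. The largest shares were in the Dock and Ifi families, with 3 of 10 each. All 10 Dock genes had a negative log2 fold change (median -0.40, or -0.24 after length correction, when 1 fell). In the Clec family of C-type lectins 4 of 18 changed, of which Clec2l rose (0.85) and Clec9a fell. Clec4n, which encodes dectin 2, was at 508, 547 and 556 scaled CPM in naive, 759 and 723 in d15 and 1155, 928 and 933 in d35 libraries (d15 log2 fold change 0.46, adjusted p = 0.0362). Clec1b, which encodes the podoplanin receptor CLEC-2, was at 63.0, 65.3 and 72.4 in naive, 38.7 and 46.1 in d15 and 107, 111 and 117 in d35 libraries (-0.65, adjusted p = 0.00852), lowest at d15 and highest at d35. Of 10 Srsf splicing factor genes Srsf5 fell (349, 429 and 416 against 242 and 268, -0.64, adjusted p = 0.00852) and Srsf7 rose (0.32, adjusted p = 0.0481). Of 13 Ptpn phosphatase genes Ptpn1 rose and Ptpn6, which encodes SHP-1, fell (589, 609 and 576 against 496 and 415, -0.38, adjusted p = 0.0476, and -0.25 without d15 replicate B). Dennd4a and Dennd4b, activators of Rab GTPases, fell among 12 Dennd genes (-0.62 and -0.54, adjusted p = 0.0297 and 0.0205), and all 10 Chd remodeller genes had a negative log2 fold change (median -0.20, or -0.043 after length correction). Leaving out d15 replicate B ended all 8 of these calls (adjusted p from 0.0516 to 0.337), and the number ended was 8 without d15 replicate A, 4, 6 and 5 without naive replicates 1, 2 and 3 and 1 without d35 replicate 1. After length correction 4 of the 8 did not pass.

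The authors' deposited table of the same comparison holds 10778 genes, of which 389 have a false discovery rate under 0.05, 180 with a positive and 209 with a negative log2 fold change. Of the 389 genes of the authors' deposited table, 229 were also called by limma, and the other limma calls did not reach that threshold there. Named calls with a higher false discovery rate in the authors' likelihood-ratio test included Hdac7 (0.714), Irf4 (0.672), Ly96 (0.661), Clec9a (0.585), Cx3cr1 (0.313), Cry2 (0.145) and Per3 (0.130). All 493 limma calls are in the authors' deposited table with the same sign, which comes from the same libraries and adds no independent evidence. The authors' deposited table gives a log2 fold change of 3.18 for Nr1d1, 2.97 for Tef, 1.84 for Gca, -1.74 for Mfsd6 and -1.14 for Slc7a8.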

How the data were processed

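RNA-seq was measured in 8 libraries of sorted alveolar macrophages (3 naive, 2 d15, 3 d35). Reads were aligned with STAR 2.5 to mm10 and edgeR was used, per the submitters' processing notes. The counter, annotation and strand setting were not given in the sources used here. The expression table deposited by the authors holds a scaled signal (scaled CPM), equal to reads plus 0.5 over a scaled library size. Whole reads were recovered for 100.0% of values (tolerance 0.001), 27465745 to 39572173 reads a library. The smallest total of a gene over all libraries was 41 reads. The authors' deposited table of d15 against naive gives a log2 fold change, a likelihood-ratio score, a p-value and an adjusted p-value for each gene. The d15 columns carry the numbers 2 and 3 and the sample titles 1 and 2, so they were assigned to the group only and are called replicates A and B.

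From the deposited values, log2(scaled CPM + 1) was computed for 11273 genes with at least 1 scaled CPM in at least 2 libraries and fitted with limma 3.58.1 (R 4.3.3, intensity trend, all 8 libraries, group only, 5 residual degrees of freedom), with Benjamini-Hochberg adjustment over all genes and calls at 0.05. All adjusted p-values are from this fit unless limma-voom, edgeR 4.0.16 or DESeq2 1.42.0 is named. Alternatives were other pseudocounts, filters, scalings and tools, a length correction (lowess of span 0.3 on log2 length), a replicate block and each library left out. The procedure was tested on simulated data. Genes were named by rule: the 15 largest rises and falls, the 6 most abundant and the 6 of smallest p in each direction, the called members of each list (or that of smallest p), the called members of the 8 symbol families with the largest share of calls and the 4 largest changes of low genes each way. Sla, St7 and most named members that did not pass were added after their values were seen. Some genes that the rule names are not reported here. The groups, gene lists and tests were chosen with earlier results of these data known, and lists are described by counts and medians with no set test. Lists of sex-linked genes and of eosinophil and mast cell markers had 0 tested members.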

Additional observations from a re-analysis of the deposited data

Results flagged for a closer look

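The 30 genes with the largest rises and falls at d15 were also compared between d35 and d15 by limma over all 8 libraries. In 15 of them the difference itself passed, where 7.39% of all genes tested did. The 30 genes were picked for extreme d15 values, and the comparison shares the d15 libraries with the one against naive. That choice favors a difference back toward naive, so the 2 shares cannot be compared. Rises at d15 with a lower level at d35 had d35-minus-d15 log2 differences of -2.70 for Nr1d1, -2.64 for Fkbp5, -2.62 for Tef, -2.11 for Nr1d2, -1.77 for Per2, -1.76 for Gca, -1.62 for Gpr141, -1.53 for Egfem1, -1.47 for Cytip and -0.85 for Klf9. Adjusted p ran from 1.32e-05 for Tef to 0.0318 for Klf9. Mmp12 rose further at d35, by 4.99 (adjusted p = 4.73e-05). Genes that fell at d15 and were higher at d35 were Slc2a6 (1.45), Slc7a8 (1.00), Fmnl3 (0.86) and Mfsd6 (0.61), with adjusted p from 0.000183 for Slc7a8 to 0.0435 for Mfsd6. Groups of 3 and 2 libraries are too small for a check of outlying samples.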

How the results depend on the processing

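Limma called 493 genes (267 higher, 226 lower). With naive and d15 libraries alone the counts were 1179 (634 higher, 545 lower), and by DESeq2 on the recovered reads 1451 (686 and 765), of which 492 in each case were among the 493. Limma-voom gave 331 (173 higher) and edgeR's quasi-likelihood test 417. Length correction gave 345 (149 lower). TMM scaling gave 466, and median-ratio scaling 457 (204 higher, 253 lower). Pseudocounts of 0.5 and 4 gave 514 and 440, no filter 396 and a mean log2 value of at least 3 gave 633. Leaving out 1 library at a time gave between 12 and 1079 genes, 9 to 619 higher and 3 to 460 lower. The column numbers shared by naive and d15 libraries did not pair them (correlation of deviations -0.049 for number 2 and 0.0019 for number 3), and a replicate block on them gave 345 genes, 181 higher and 164 lower. Among 158 named genes with a call, none changed direction under any alternative. In all 493 called genes the d15 values lay outside the naive range. Leaving out libraries or changing the pseudocount or filter could therefore not reverse a direction. Only the other scalings and tools, the length correction and the replicate block could have done so. The number whose call was lost was 18 with a pseudocount of 4, 26 with no filter, 48 by voom, 24 by edgeR, 6 and 13 by TMM and median-ratio scaling, 63 after length correction, 51 with the replicate block and 146 without d15 replicate B. The stricter filter tests fewer genes, and the fits on fewer libraries use fewer samples. For the other changes in count the cause was not tested. The size of a low gene's change depends on the scale: Dbp, Serpina3g, Ccl17 and Cx3cr1 had log2 fold changes of 4.89, 3.96, 3.08 and -3.15 by edgeR, against 2.75, 2.38, 2.03 and -1.41 on the log2(value + 1) scale.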
